A study of Rattus norvegicus with 5 samples.

Results

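The genes described are the fibroblast growth factors (FGFs) and their receptors, measured in total RNA of rat hippocampus labelled P5. Of 10 genes chosen (Fgf1, Fgf2, Fgf5, Fgf7, Fgf9, Fgf14, Fgfr1, Fgfr2, Fgfr3 and Fgfr4), 9 had at least 1 probe set annotated to that gene alone, and these 17 probe sets, of 8799 on the array, were matched by gene symbol; the genes themselves were chosen with earlier results of these data known. Fgfr3 had none and is not analysed here. The 5 arrays came from 2 samples of a control diet, 2 samples of fetal alcohol exposure (FAE) and 1 sample of an isocaloric diet. Strain, sex, dose, timing of the exposure and the number of animals behind a sample are not given in the labels, nor does any label say that arrays within a group represent different animals, so p-values measure only the spread between these samples, which may be technical.

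FGFs are secreted proteins that bind heparan sulphate and activate receptor tyrosine kinases. The receptors signal through the docking protein Frs2 to Ras and MAP kinases, and also through phospholipase C gamma and PI3 kinase, while Sprouty proteins and MAP kinase phosphatases dampen the signal. In the developing hippocampus the pathway is known for keeping progenitors dividing, through Fgf2 and Fgfr1 among others, and for helping synapses form. Fgf14 is an exception in the family: it stays inside the neuron and binds voltage-gated sodium channels.

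The start regions of 3 of the genes show how differently the members are built as regulatory sequence, from the AT-rich Fgf7 to the GC-rich Fgfr2, with Fgf5 carrying a core promoter motif close to its start. Each line gives the 100 bases before the annotated start, 5′ to 3′ on the strand of the gene, from RefSeq on build GRCr8. Capitals mark motif matches on either strand. The core promoter motif was searched by the letters TATAAA. The GC box, bound by Sp1 and related factors, was searched by the letters GGGCGG. The last motif was spelled CCAAT in the search.
Fgf7 (chr3:133735527-133735626, plus strand): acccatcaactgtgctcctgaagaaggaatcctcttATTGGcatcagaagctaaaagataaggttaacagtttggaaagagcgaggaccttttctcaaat
Fgf5 (chr14:11650244-11650343, minus strand): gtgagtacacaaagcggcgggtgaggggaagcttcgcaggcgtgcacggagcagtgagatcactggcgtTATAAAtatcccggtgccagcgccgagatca
Fgfr2 (chr1:194280915-194281014, minus strand): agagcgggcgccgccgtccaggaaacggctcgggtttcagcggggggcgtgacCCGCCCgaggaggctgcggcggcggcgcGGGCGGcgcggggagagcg

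Over the 250 bases before the start, the GC content was 41.6% for Fgf7, 66.8% for Fgf5 and 76.8% for Fgfr2, against a median of 51.2% over 33469 such windows. CpG pairs numbered 5, 21 and 37, against a median of 5. Among all windows 12.9% held the first motif, 30.5% the GC box and 34.0% the last one. In the 250 bases Fgf5 also had 1 GC box, Fgfr2 a CCAAT box, and Fgf7 a TATAAA match that began 235 bases before the start. Of the 10 genes 9 had a window in the table, and Fgfr1 had none. These matches describe letters only and were set against no measurement.

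The deposited intensities are on a linear scale, and the same trimmed mean of about 150.2 was found on all 5 arrays. The level of a probe set cannot be set against that of another, so each FGF probe set is compared only with itself across arrays. The marker sums given below add intensities of different probe sets, so the brightest markers weigh most in them. Intensities were turned into log2(intensity + 10.605), which understates the change of dim probe sets. Probe sets under the 40th percentile of mean log2 value, an intensity near 33.4, were not tested. Of the 17 FGF probe sets 10 passed this filter, covering Fgf1, Fgf2, Fgf9, Fgfr1, Fgfr2 and Fgfr4. The dimmest that passed was M91599mRNA_at of Fgfr4, with a mean log2 value of 5.65, and the brightest that did not was that of Fgf14, with 5.31, around a filter value of 5.46. No probe set of Fgf5, Fgf7 or Fgf14 passed, and their values are given without a test.

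As a check of the tissue, the neuronal list had 13 of 16 markers on the array. Their summed intensity was 7587 and 7214 under control diet, 7295 and 8170 under FAE and 6705 under the isocaloric diet. Gap43 and Nrgn were the brightest in this sum, and single markers moved both ways. Of the 11 tested, 2 (Syn1 and Neurod1) were lower on both FAE arrays than on either control diet array. Another 2 (Nefl and Nrgn) were higher on both. Astrocyte and radial glia markers, 12 of 14, summed to 8795 and 8645, to 8557 and 8168, and to 9347. Choroid plexus markers, 10 of 13, did not stay level: they summed to 7222 and 7366 under control diet, 2854 and 1349 under FAE and 7918 under the isocaloric diet. Most of this difference lay in Ttr, the transthyretin gene, at 5297 and 4886, then 1004 and 69.2, then 5391. The other 9 markers summed to 1925 and 2480, to 1850 and 1280, and to 2526. Of their 7 tested markers 5 were lower on both FAE arrays than on either control diet array. The brightest of the 9 were Igf2 (592 and 861, then 582 and 308, then 593) and Igfbp2 (670 and 909, then 832 and 573, then 1033). Both are also on the meningeal list, so this sum is not separate from the meningeal one. Meningeal and connective tissue markers, 16 of 17, summed to 6753 and 9791, to 8000 and 3930, and to 6340. Ptgds, the brightest of them, measured 2230 and 3542, then 3087 and 997, then 1734. Microglia and leukocyte markers, 8 of 11, summed to 499.4 and 710.2, to 479.3 and 419.4, and to 445.2. Endothelium and pericyte markers, 7 of 11, summed to 821.5 and 1067, to 669.9 and 750.9, and to 938.2. No marker was listed at 0, although Slc17a7, the vesicular glutamate transporter of hippocampal pyramidal neurons, lay between 3.15 and 5.72 and so under the offset on every array.

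**Figure D1:**
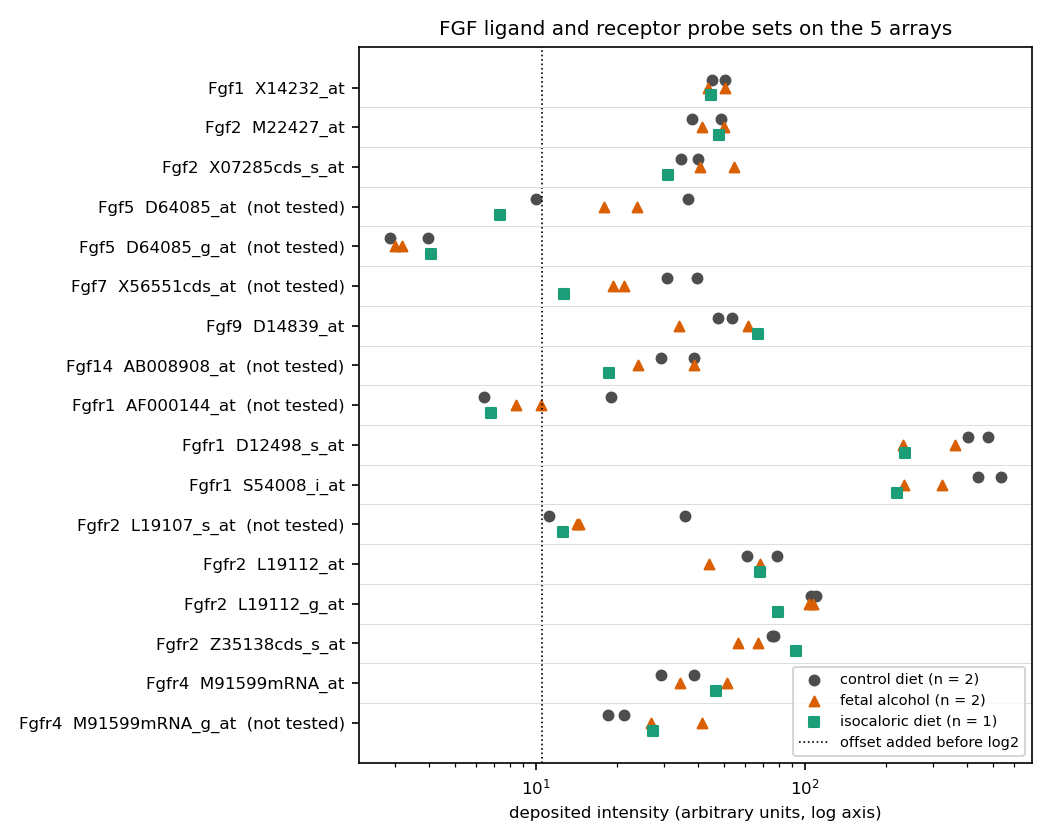
Deposited intensity (log axis, arbitrary units) of each of the 17 FGF probe sets on the 5 arrays; circles are control diet, triangles fetal alcohol and the square the isocaloric diet, and the dotted line is the offset of 10.605. The bright Fgfr1 probe sets and that of Fgf7 have both control diet circles to the right of all other arrays.

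The comparison of FAE with control diet asked which of these genes differ in the hippocampus after alcohol exposure before birth. Fgfr1, the receptor most tied to hippocampal progenitors, gave lower signals on both FAE arrays at its 2 bright probe sets, by 1.5-fold and 1.74-fold, and the dim ligand Fgf7 was lower by 1.48-fold. The tested probe sets of Fgf1, Fgf2, Fgf9, Fgfr2 and Fgfr4 differed by less than 1.25-fold in either direction. None of the 10 tested probe sets passed limma's test at an adjusted p of 0.05, and neither did any of all 5244 (0%). At an unadjusted p under 0.05 there was 1 of 10, against 5.61% of all probe sets. The groups did not overlap for 4 of 10, against 34.5% of all, so this count lies near the background. With a difference of at least 1.5-fold downward as well, 2 of 10 remained, both of them Fgfr1, against 3.91%. D12498_s_at met that limit narrowly, at 1.503-fold. Its log2 difference of -0.588 became -0.528 with an offset of 50 and -0.545 with equal medians, both short of 1.5-fold. The differences were negative for 7 of 10, against 49.5% of all probe sets, with a median of -0.068 on the log2 scale against 0.0049 for all. The negative ones include 2 probe sets of Fgfr1 and 3 of Fgfr2, so this is not a count of separate genes.

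Fgfr1 is described first among the receptors, since it carries the largest differences of the tested probe sets. Its probe set S54008_i_at measured 538 and 439 under control diet, 323 and 234 under FAE and 219 under the isocaloric diet. Both FAE arrays and the isocaloric array lay below both control diet arrays. The log2 difference of FAE from control diet was -0.80 ± 0.26 (SE; 95% interval -1.39 to -0.20, limma adjusted p = 0.690, unadjusted p = 0.0145). The second probe set, D12498_s_at, measured 404 and 479.7 under control diet, 360.3 and 232 under FAE and 236 under the isocaloric diet. FAE and control diet arrays again did not overlap, and the log2 difference was -0.59 ± 0.28 (interval -1.22 to 0.045, limma adjusted p = 0.909).

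The 2 FAE arrays did not lie equally low for Fgfr1. Without FAE array 1, S54008_i_at differed by -1.02 and D12498_s_at by -0.895, and without FAE array 2 by -0.57 and -0.28, with limma adjusted p-values between 0.124 and 0.612 in those fits, in which only the control diet pair gave a spread. The FAE difference kept its sign in all 13 alternative settings for both probe sets, but most of these could not have turned it. Both FAE arrays lay below both control diet arrays, so neither leaving out 1 array nor changing the offset could do so. The filter, variance trend and block settings, and the fit without the isocaloric array, left the difference itself unchanged. Only the changes of scaling could have turned the sign. The third Fgfr1 probe set, AF000144_at, was dim, at 19.0 and 6.43 under control diet, 8.47 and 10.4 under FAE and 6.83 under the isocaloric diet. Its arrays overlapped and 4 of its 5 values lay under the offset. In bulk tissue, fewer cells that carry a receptor and less of its RNA per cell cannot be told apart. Some marker sums were below both control diet arrays on both FAE arrays. These were the sums of choroid plexus, microglia and leukocytes, endothelium and pericytes, and astrocytes and radial glia. Of the tested astrocyte and radial glia markers, 6 had a negative and 6 a positive difference. The meningeal sum was below both control diet arrays on FAE array 2 only. Yet all 16 tested meningeal markers had a negative difference (median -0.396), against 49.5% of all probe sets. Among them Igf2 and Igfbp2 are also on the choroid plexus list, and Vim on the astrocyte and radial glia list. The part of these cell types in the Fgfr1 difference was not tested.

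Fgfr2 encodes a receptor found in glia and in epithelia such as the choroid plexus, and had 4 probe sets. Z35138cds_s_at measured 75.4 and 76.9 under control diet, 56.6 and 66.9 under FAE and 93.0 under the isocaloric diet. The FAE arrays lay below and the isocaloric array above the control diet pair, but the FAE difference of -0.27 ± 0.23 (interval -0.78 to 0.25) did not pass (limma adjusted p = 0.965). L19112_at measured 61.1 and 79.1, then 44.1 and 68.4, then 68.2, with overlapping groups and a log2 difference of -0.29 ± 0.27. It rests on FAE array 1, with -0.023 when that array was left out and -0.55 without FAE array 2. L19112_g_at, drawn from the same transcript sequence, measured 110.5 and 105, then 107 and 104, then 79.5, with a difference of -0.03 ± 0.22. So the tested probe sets of this gene ranged from 1.02-fold to 1.22-fold lower, and all 3 intervals crossed 0. The dim L19107_s_at stood at 35.8 and 11.2 on the control diet arrays and between 12.7 and 14.5 on the other 3 arrays.

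Fgfr4, a receptor best known from liver and muscle, was measured by 2 probe sets from one transcript sequence. M91599mRNA_at measured 29.2 and 38.8 under control diet, 51.6 and 34.3 under FAE and 46.6 under the isocaloric diet. FAE array 1 stood above and array 2 within the control diet range, and the log2 difference was 0.25 ± 0.27 (interval -0.37 to 0.87, limma adjusted p = 0.965). Without FAE array 1 it was 0.017. The dimmer M91599mRNA_g_at measured 18.6 and 21.4, then 41.4 and 26.9, then 27.3, so that both FAE arrays and the isocaloric array lay above the control diet arrays. This is the opposite order to that of Fgfr1, in a probe set too dim for the test.

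Among the ligands, Fgf1, or acidic FGF, a ligand of every FGF receptor, was the most even. It measured 45.1 and 50.7 under control diet, 43.5 and 50.5 under FAE and 45.0 under the isocaloric diet. Its log2 difference was -0.02 ± 0.24, with an interval from -0.56 to 0.52 that leaves room for a change of about that size either way. Its sign turned positive under quantile normalization and equal medians.

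Fgf2, or basic FGF, a mitogen of hippocampal progenitors and a product of astrocytes, had 2 probe sets. M22427_at measured 49.0 and 38.2 under control diet, 50.04 and 41.4 under FAE and 48.1 under the isocaloric diet, with a log2 difference of 0.06 ± 0.25. X07285cds_s_at measured 40.1 and 34.8, then 54.5 and 41.0, then 31.1. Here both FAE arrays lay above all others, FAE array 2 by a narrow margin, and the difference was 0.27 ± 0.25 (interval -0.30 to 0.85, limma adjusted p = 0.965). Without FAE array 1 it was 0.10, and without FAE array 2 it was 0.44. The isocaloric array lay within the control diet pair at the first probe set and below it at the second.

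Fgf9, a ligand made by neurons and first known as glia-activating factor, measured 47.6 and 53.6 under control diet, 34.0 and 61.7 under FAE and 66.8 under the isocaloric diet. The 2 FAE arrays lay on opposite sides of the control diet pair. The log2 difference of -0.11 ± 0.29 took the value 0.24 without FAE array 1.

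Fgf7, or keratinocyte growth factor, is a ligand of an epithelial form of Fgfr2 that in the hippocampus is known for organising inhibitory synapses. It measured 30.8 and 39.9 under control diet, 21.4 and 19.4 under FAE and 12.8 under the isocaloric diet. All 3 arrays of the other diets lay below both control diet arrays, as for Fgfr1. The share of all probe sets with this order was not counted, but each part of it is common. Of all tested probe sets, 17.7% were lower on both FAE arrays than on either control diet array. For the isocaloric array it was 37.5%. The log2 difference of FAE from control diet was -0.56, and between -0.71 and -0.42 when 1 array was left out. It depends on the offset, from -0.76 with an offset of 1 to -0.28 with one of 50. When the intensity filter was dropped, its unadjusted p was 0.0496 and its limma adjusted p 0.893.

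Fgf14 measured 38.7 and 29.2 under control diet, 24.1 and 38.8 under FAE and 18.8 under the isocaloric diet, so FAE and control diet overlapped. Fgf5, a ligand best known as a regulator of hair growth, measured 10.02 and 36.8, then 17.9 and 23.8, then 7.39 at D64085_at, where the control diet arrays were the farthest apart. At D64085_g_at it lay between 2.87 and 4.09 on the 5 arrays, under the offset throughout.

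**Figure D2:**
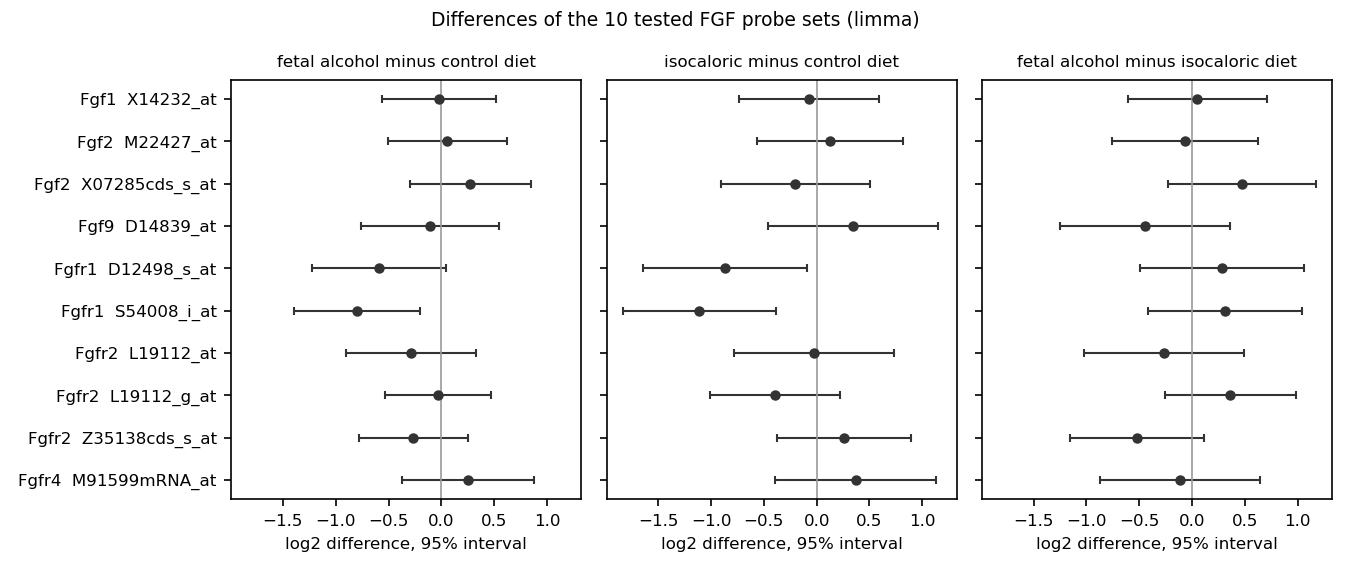
Log2 difference of each of the 10 tested FGF probe sets with its 95% interval from limma, for the 3 comparisons; the vertical line is no difference. The intervals of both Fgfr1 probe sets lie below 0 for the isocaloric diet, that of S54008_i_at also for fetal alcohol (-1.39 to -0.20), and all other intervals cross 0.

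The comparison of the isocaloric diet with control diet concerns the feeding control and rests on 1 array, which was assumed to vary like the other groups. Both bright Fgfr1 probe sets lay below control diet, S54008_i_at by 2.16-fold and D12498_s_at by 1.83-fold. The dim Fgf7 was 1.95-fold below, a value that depends on the offset. None of the 10 tested probe sets passed limma's adjusted threshold, as none did of all 5244 (0%), and 2 of 10, both of Fgfr1, had an unadjusted p under 0.05, against 6.81% of all. The log2 differences were negative for 6 of 10, against 48.6% of all probe sets, with a median of -0.049 against 0.016.

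The log2 difference of S54008_i_at was -1.11 ± 0.32 (interval -1.84 to -0.38, limma adjusted p = 0.555) and that of D12498_s_at -0.87 ± 0.34 (interval -1.64 to -0.093, adjusted p = 0.657). With 1 array left out they ran from -1.26 to -0.97 and from -0.99 to -0.75. These ranges reflect the control diet arrays only, since the isocaloric array could not be left out. It lay below both control diet arrays at both probe sets, so leaving out either could not have turned the sign. On the isocaloric array the choroid plexus sum of 7918 and the astrocyte and radial glia sum of 9347 were above those of both control diet arrays. The meningeal sum of 6340, the microglia and leukocyte sum of 445.2 and the neuronal sum of 6705 were below both. So were the sums of oligodendrocyte lineage markers (699.8 against 789.4 and 802) and red blood cell markers (4259 against 4348 and 4989). Their part in this Fgfr1 difference was not tested. The difference of Fgf7 was -0.97, and -1.39 with an offset of 1 or -0.44 with one of 50. That of Fgf14, also dim, was -0.59, and -0.81 or -0.29 with those offsets. Fgf5 at D64085_at had -0.80, and -1.28 or -0.33 with those offsets. Its value rests on control diet array 2, with -0.20 when that array was left out and -1.40 without control diet array 1.

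The remaining members differed from control diet by less on the isocaloric array. Fgfr2 had -0.40 ± 0.27 at L19112_g_at, -0.03 ± 0.33 at L19112_at and 0.26 ± 0.28 at Z35138cds_s_at, so its probe sets gave no common direction. Fgfr4 had 0.37 ± 0.33, Fgf9 0.34 ± 0.35 and Fgf1 -0.07 ± 0.29. Fgf2 had 0.12 ± 0.30 and -0.20 ± 0.31. No test passed for these, and equality is not thereby shown.

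The comparison of FAE with the isocaloric diet asked how alcohol exposure compares with the feeding control. No FGF probe set was called: 0 of 10 tested probe sets passed limma's adjusted threshold, as did 0% of all, and 0 of 10 had an unadjusted p under 0.05, against 4.21%. For Fgfr1 the log2 differences were 0.31 ± 0.32 at S54008_i_at (interval -0.42 to 1.04) and 0.28 ± 0.34 at D12498_s_at (interval -0.49 to 1.06). At the second of these the isocaloric array lay between the FAE arrays. Z35138cds_s_at of Fgfr2 had -0.52 ± 0.28, with both FAE arrays below the isocaloric array, and X07285cds_s_at of Fgf2 had 0.47 ± 0.31, with both above it. Fgf9 had -0.45 ± 0.35, and -0.099 without FAE array 1 or -0.80 without FAE array 2. S54008_i_at ran from 0.088 without FAE array 1 to 0.54 without FAE array 2. Among the untested members, both FAE arrays lay above the isocaloric array for Fgf5 at D64085_at (0.80), Fgf14 (0.49) and Fgf7 (0.40). The same held for AF000144_at of Fgfr1 (0.20) and L19107_s_at of Fgfr2 (0.10), and the opposite for D64085_g_at of Fgf5. The isocaloric value of D64085_at, 7.39, lay under the offset. Such an order is common against 1 array: 59.9% of all tested probe sets did not overlap, and 5 of the 10 tested members. The tested differences were negative for 5 of 10, with a median of -0.0079. Because FAE and isocaloric arrays were both compared with the same 2 control diet arrays, a low or high control value enters both of those differences.

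Genes around the receptors were taken from 5 lists with 108 genes in all, of which 50 had a probe set of their own and 37 were tested, each by its brightest probe set. For FAE against control diet 0 of 37 passed limma's adjusted threshold, and at an unadjusted p under 0.05 there were 3 lower and 0 higher, or 8.11% against 5.61% of all probe sets. Their median log2 difference was -0.069, with 21 negative and 16 positive. The 4 other FGF ligands with a probe set (Fgf10, Fgf16, Fgf17 and Fgf18) were too dim to test. Among them Fgf17, a ligand of the midbrain and cerebellar primordium, was listed at 20.5 and 20.4 under control diet. It stood at 5.59 and 5.54 under FAE and 6.78 under the isocaloric diet, all under the offset. Fgf10 and Fgf16 went the other way. Fgf10 was at 8.53 and 7.11 under control diet, both under the offset. Under FAE it was at 16.2 and 10.9, the latter only just above the offset. Fgf16 was at 16.4 and 19.0, then 24.1 and 27.0. Fgf18 was lower under FAE but under the offset on every array.

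The cascade from docking to MAP kinase had 6 of 24 listed genes tested, 3 with a negative and 3 with a positive difference, and a median of 0.067. Map2k2 (0.31 ± 0.27) and Map2k1 (0.24 ± 0.25), the kinases that activate MAP kinase, had the largest differences, ahead of Sos1, which loads Ras with GTP (0.15 ± 0.24), and Araf, a Raf kinase (-0.14 ± 0.22). None had an unadjusted p under 0.05. A second probe set of Sos1 gave -0.16, so its sign depends on the probe set, while those of Map2k2 gave 0.0049 and 0.026 and those of Map2k1 0.15 and 0.35. For the isocaloric diet against control diet the median was -0.14, with Sos1 at 0.39 ± 0.29, Nras at -0.23 ± 0.41 and Map2k1 at -0.21 ± 0.31. The second probe set of Sos1 gave 0.44, that of Nras 0.18 and the others of Map2k1 -0.62 and 0.090, so the last 2 genes have no common sign.

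The phospholipase C, PI3 kinase and STAT branches had 11 of 20 tested, 7 negative and 4 positive, with a median of -0.12. Pik3r2, a regulatory subunit of PI3 kinase, measured 151 and 170.2 under control diet, 98.8 and 90.4 under FAE and 124 under the isocaloric diet. The FAE arrays lay lowest, with a log2 difference of -0.70 ± 0.23 (limma adjusted p = 0.690), and its second probe set gave -0.50. Akt2, a kinase downstream of PI3 kinase, had -0.49 ± 0.22 and at its second probe set -0.70, Stat3 had -0.51 ± 0.25, with 0.20 at a dim second probe set, and Prkcb, a protein kinase C, had 0.52 ± 0.32, with 0.34 and -0.12 at its others. On the isocaloric array Plcg1, the phospholipase bound by FGF receptors, had 0.44 ± 0.33, Pik3cb -0.37 ± 0.28 and Pik3r2 -0.34 ± 0.28, with -0.44 at its second probe set, within a list median of -0.20.

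Feedback inhibitors and induced transcription factors had 8 of 20 tested, 4 negative and 4 positive, with a median of -0.082. Dusp1, a MAP kinase phosphatase induced by growth factors and stress, measured 113 and 125 under control diet, 63.3 and 41.0 under FAE and 117 under the isocaloric diet. Here the FAE arrays stood below all 3 others, unlike for Fgfr1, with a log2 difference of -1.07 ± 0.26 (limma adjusted p = 0.545). One further Dusp1 probe set gave -1.12 and another -0.12. Dusp6, the phosphatase most used as a readout of FGF signalling, had 0.01 ± 0.30 at the brighter of its 2 probe sets. This averages FAE arrays on opposite sides of the control diet pair, at 246 and 436 against 339 and 314. Spry1, a Sprouty inhibitor, had -0.31 ± 0.24. Myc had 0.56 ± 0.34, Dusp5 0.41 ± 0.23 and Egr1 0.36 ± 0.29, and the other Egr1 probe sets ran from -0.27 to 0.16. On the isocaloric array Fos had the largest difference, -1.10 ± 0.32 (limma adjusted p = 0.555), although its other probe sets gave -0.29 and 0.17, and Ccnd1 had -0.50 ± 0.31, with others from -0.49 to -0.064. Myc had 0.48 ± 0.42 but -0.04 at its second probe set.

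Heparan sulphate proteoglycans and membrane partners, which hold FGFs at the cell surface, had 12 of 26 tested, 7 negative and 5 positive, with a median of -0.054. Sdc3, a neuronal syndecan, measured 355 and 505 under control diet, 246 and 269.6 under FAE and 278 under the isocaloric diet. As for Fgfr1, both control diet arrays lay above all others, an order whose share of all probe sets was not counted. The difference of FAE was -0.69 ± 0.26 (limma adjusted p = 0.788). Gpc3, a glypican, had -0.57 ± 0.27, with -0.80 and -0.11 at its other probe sets, Gpc1 -0.28 ± 0.24 and Sdc1 0.24 ± 0.28, with -0.12 at its second. On the isocaloric array Sdc4 had -0.67 ± 0.40, with -0.58 and -0.52 at its others, Sdc3 -0.59 ± 0.31 and Gpc2 0.53 ± 0.28, and the list median was 0.081.

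**Figure D3:**
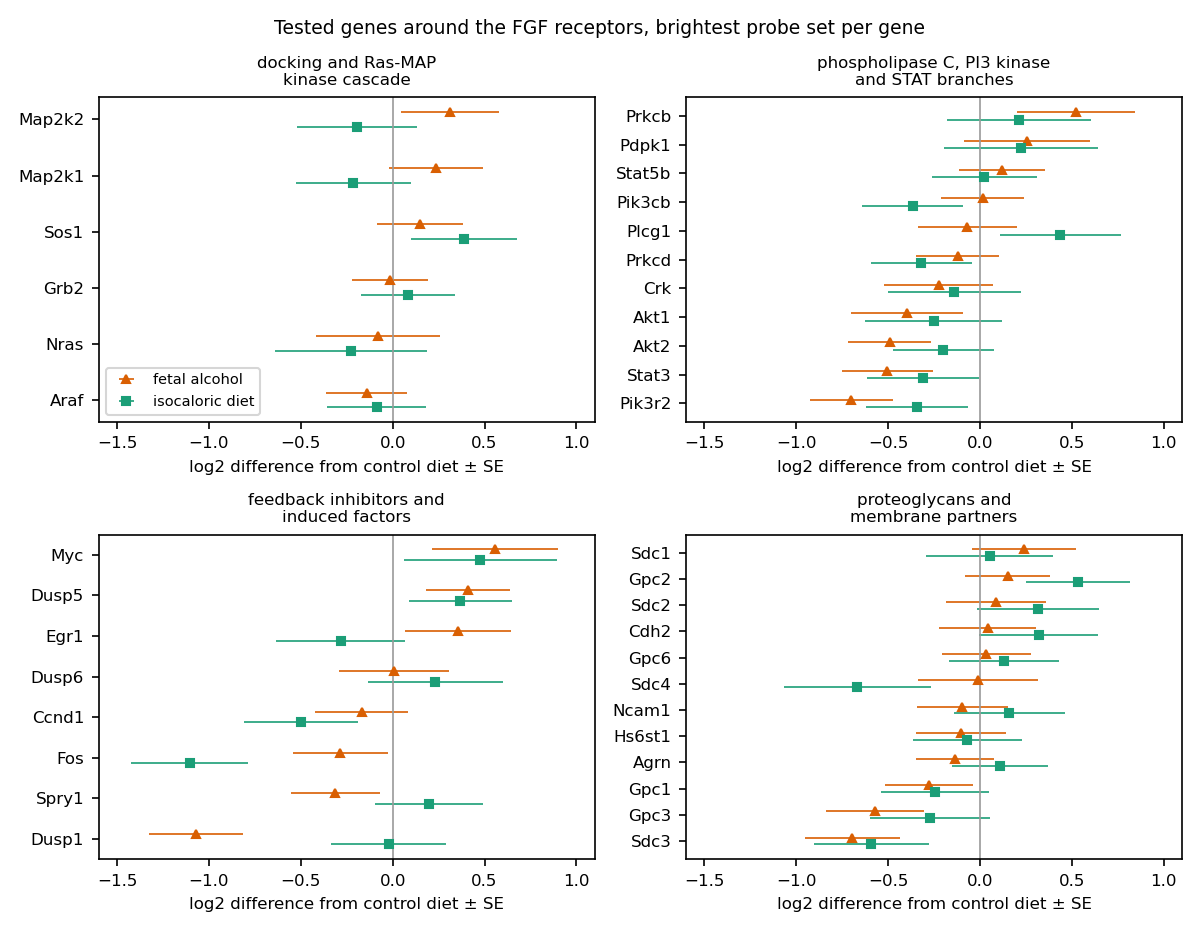
Log2 difference from control diet, with its SE from limma, of the 37 tested genes around the FGF receptors in 4 lists (triangles fetal alcohol, squares isocaloric diet; brightest probe set per gene). Dusp1 is lowest for fetal alcohol (-1.07) and near 0 for the isocaloric diet (-0.02), while Sdc3 is low in both (-0.69 and -0.59).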

How the data were processed

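Arrays of 5 samples were analysed. The authors deposited 1 intensity per probe set and array, with software and scaling not given in the sources used here. Between arrays the 2% trimmed means agreed within a ratio of 1.0002, so no further scaling was applied. No detection call or scan date entered. After 59 control probe sets were left out, 8740 remained, 7006 with 1 gene symbol, 308 with several and 1426 with none; current symbols were found by gene identifier for 6985. Values became log2(intensity + 10.605), the offset being the 20th percentile, and the 5244 probe sets at or above the 40th percentile were fitted in limma 3.58.1 (R 4.3.3), over all 5 arrays, with an intensity trend, 2-sided tests and Benjamini-Hochberg adjustment. The fit had 2 residual degrees of freedom and 6.30 prior ones. It was also run on simulated normal values drawn from its own estimates. Such values meet its assumptions, so they cannot show how it handles effects shared within an array. Precision is limited by the number of arrays.

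The members and gene lists were chosen with earlier results of these data known. All members are named; of each pathway list, up to 4 genes with the largest difference for fetal alcohol and up to 3 for the isocaloric diet, and further genes (Dusp6, Spry1, Fgf17, Slc17a7, Ttr) after their values were seen. Alternatives changed the offset, filter, scaling, variance trend, arrays and block.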

Additional observations from a re-analysis of the deposited data

How the results depend on the processing

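No FGF probe set passed the adjusted threshold in any comparison under any of the alternatives run, including the fit with the replicate number as a block, where the count was 0. Over all probe sets, the count past the threshold for fetal alcohol against control diet went from 0 to 1 with an offset of 50, 1 under quantile normalization, 9 with equal medians, 8 with the replicate block and 0 to 25 with 1 array left out (17 without fetal alcohol array 1, 25 without array 2, 0 without either control array). For fetal alcohol against the isocaloric diet it was 3 under quantile normalization, 3 with equal medians and 0 to 12 with 1 array left out, and for the isocaloric against control diet 0 to 13, the higher counts again without a fetal alcohol array (10 and 12, 11 and 13). The labels give the replicate numbers no meaning as pairs; deviations of same-numbered arrays correlated at -0.113, and crossed pairs, chosen after seeing the data, gave 21. The cause of these moves was not tested.

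Differences near 0 turned sign. For fetal alcohol against control diet Fgf1 was 0.012 under quantile normalization and 0.013 with equal medians, and L19112_g_at of Fgfr2 was 0.0089 with equal medians. With 1 array left out Fgf1 ran from -0.11 to 0.0644, M22427_at of Fgf2 from -0.0866 to 0.202 and Fgf9 from -0.454 to 0.243. Against the isocaloric diet the ranges were -0.026 to 0.587 for D12498_s_at of Fgfr1, -0.527 to 0.00307 for L19112_at of Fgfr2, -0.038 to 0.136 for Fgf1, -0.176 to 0.046 for M22427_at and -0.351 to 0.12 for M91599mRNA_at of Fgfr4. For the isocaloric against control diet L19112_at was 0.011 under quantile normalization, 0.028 with equal medians and -0.187 to 0.135 with 1 array left out, and M22427_at -0.0217 to 0.267. Left-out fits rest on 1 pair for their spread, and the lone array of a group is assumed to vary like that pair.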

Other observations

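A probe set annotated to Fgfr1-ps1, a pseudogene copy of the Fgfr1 receptor gene and no member of the set above, stood in the opposite order to Fgfr1. U58466_at measured 47.6 and 47.4 under control diet, 74.8 and 74.8 under fetal alcohol and 62.3 under the isocaloric diet. The log2 difference of fetal alcohol from control diet was 0.56 ± 0.22 (limma adjusted p = 0.820), and it was named after its values were seen. Fgfbp3, a secreted carrier of FGFs, measured 276 and 235 under control diet, 306 and 166 under fetal alcohol and 218 under the isocaloric diet, with a difference of -0.17 ± 0.31.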
